A study of Homo sapiens with 14 samples.

Results

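The mitochondrially encoded genes were the 37 rows of the count files whose gene name starts with MT-, out of 59471 gene names. They comprise 13 mRNA genes, 2 rRNA genes and 22 tRNA genes. RNA-seq was performed on SCC23 cells, an established head and neck squamous cell carcinoma (HNSCC) line, and gave 14 libraries over 2 experiments. The cells were KMT2D-WT and the CRISPR-Cas9 derived KMT2D-KO lines KO1 and KO2, all made from SCC23 with a Cas9 plasmid carrying a guide against LacZ or KMT2D. They were kept in glucose (+Glc) or deprived of it for 6 h (-Glc). Each glucose condition held 3 KMT2D-WT libraries (1 in experiment 1 and 2, called WT1 and WT2, in experiment 2) and 4 KMT2D-KO libraries (KO1 and KO2 in each experiment). By the study's methods, transfected cells that were GFP-positive were collected by sorting and put into culture. The RNA was selected for poly(A) tails.

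Mitochondrial DNA is a small circle that is read from both strands into long precursor RNAs. The precursors are cut mostly at the tRNAs that lie between the other genes, after which the rRNAs and most of the mRNAs receive tails. The 13 mRNAs encode subunits of respiratory complexes I, III, IV and V, and the 12S and 16S rRNAs (MT-RNR1 and MT-RNR2) build the ribosome that translates them. The polymerase, the processing enzymes and all other subunits are encoded in the nucleus. KMT2D is a nuclear histone methyltransferase that marks enhancers.

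In the files the 37 genes lie on chromosome MT of GRCh38, which is 16569 bases long in the hg38 sequence, and they are packed with few bases between them. Of the tRNA genes, 14 lie on the plus strand and 8 on the minus strand, and MT-ND6 is the 1 mRNA gene on the minus strand. MT-ATP8 and MT-ATP6 share 46 bases (8527 to 8572) and MT-ND4L and MT-ND4 share 7 bases (10760 to 10766). By the recorded settings of the counting, a read that overlaps both of 2 neighbouring genes was assigned to neither, and the strand of a read was not used. Reads of a gene and of the RNA antisense to it can therefore not be told apart, and MT-TC, MT-TY, MT-TP and MT-ND6 lie opposite the strand that encodes most of the mRNAs.

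The following tRNA genes are shown because the results differ between them. Each sequence is hg38 in the sense of the gene, with the anticodon in capitals. MT-TC (tRNA for cysteine, 5761 to 5826, minus strand), MT-TY (tyrosine, 5826 to 5891, minus strand) and MT-TP (proline, 15956 to 16023, minus strand) were higher in KMT2D-KO cells in at least 1 glucose condition. MT-TI (isoleucine, 4263 to 4331), MT-TG (glycine, 9991 to 10058), MT-TH (histidine, 12138 to 12206) and MT-TS2 (serine, 12207 to 12265) are all on the plus strand. At low levels, they were called lower in KMT2D-KO cells without glucose.
MT-TC: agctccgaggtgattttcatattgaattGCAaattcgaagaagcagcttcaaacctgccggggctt
MT-TY: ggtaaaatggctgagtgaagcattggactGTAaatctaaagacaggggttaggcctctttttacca
MT-TP: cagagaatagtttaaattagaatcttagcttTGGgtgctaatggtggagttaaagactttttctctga
MT-TI: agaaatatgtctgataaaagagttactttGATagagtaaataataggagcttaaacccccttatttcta
MT-TG: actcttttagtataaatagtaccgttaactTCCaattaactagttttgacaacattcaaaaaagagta
MT-TH: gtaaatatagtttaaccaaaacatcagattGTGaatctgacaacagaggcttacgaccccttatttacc
MT-TS2: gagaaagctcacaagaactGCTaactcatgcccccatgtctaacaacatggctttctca

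Many mRNA genes of this chromosome do not end on a whole codon, and their stop codons are completed by the tail. This held for 6 of the 13 by their lengths in the files. The last 30 bases of the rRNA genes and of 4 mRNA genes that the comparisons turn on follow in gene sense, with the letters of the stop codon that the DNA holds in capitals. MT-ND4 and MT-CO3 hold a single T and MT-ND1 holds TA. MT-CO1 ends in AGA, which is outside the standard set of stop codons.
MT-RNR1, 1572 to 1601: aagtgtactggaaagtgcacttggacgaac
MT-RNR2, 3200 to 3229: tatacccacacccacccaagaacagggttt
MT-ND1, 4233 to 4262: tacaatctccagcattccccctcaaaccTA
MT-CO1, 7416 to 7445: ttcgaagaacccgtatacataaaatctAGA
MT-CO3, 9961 to 9990: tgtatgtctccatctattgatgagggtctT
MT-ND4, 12108 to 12137: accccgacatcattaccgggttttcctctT

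Total counts ranged from 15669154 to 62968057. The 4 libraries of experiment 2 kept in glucose had both mates of a pair counted and the other 10 single reads. In experiment 2 glucose and the way of counting can therefore not be told apart. With glucose the KMT2D count did not separate the genotypes. In KMT2D-WT it was 266 to 279 CPM (counts scaled to a common library size by TMM). KO1 had 182 and 184 CPM, and KO2 had 323 and 373 CPM. Without glucose every KMT2D-KO library was below every KMT2D-WT library. The count there was 231 to 239 CPM in KMT2D-WT, 19.9 CPM in KO1 of experiment 1 and 145 to 190 CPM in the other KMT2D-KO libraries. A count over the whole gene does not test an edit of a few bases, and KMT2D itself did not pass the test (edgeR, adjusted p = 0.967 with and 0.247 without glucose). In experiment 2 without glucose, the libraries labelled KO1 and KO2 had nearly the same KMT2D level (152 and 145 CPM). Over the 13 mRNAs and 2 rRNAs the lines differed there by a median of 0.027 on the log2 scale, against 0.20, 0.28 and 0.33 in the other 3 combinations of experiment and glucose. Single squamous markers ranged from SFN at 436 to 1127 CPM to KRT6A at 0 to 1.13 CPM. Summed over 7 squamous markers, levels were 584 to 3022 CPM, whereas 4 blood markers gave at most 1.10 CPM and 3 endothelial markers at most 4.11 CPM. Some of these sums moved with genotype. The 5 fibroblast markers summed to 3.17 to 6.96 CPM in KMT2D-WT and 7.37 to 26.7 CPM in KMT2D-KO libraries. Without glucose the squamous sum was 1137 to 1597 CPM in KMT2D-WT and 1641 to 3022 CPM in KMT2D-KO. Of the 7 markers 4 were called higher, where 25.9% of all genes tested were. The endothelial sum without glucose was 0.388 to 0.800 CPM against 2.19 to 3.31 CPM, with the 1 marker tested called higher. With glucose both sums overlapped between genotypes. There 1 of 6 squamous markers tested was called lower and all 3 fibroblast markers tested were called higher, where 11.7% and 13% of all genes were. The part of these markers in the results below was not tested. Replicate numbers are not known to mark separate cultures, so p-values measure the spread between these libraries.

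In KMT2D-KO cells a larger share of all counts fell on mitochondrial genes. The 13 mRNA genes took 2.54% of counts in KMT2D-WT and 3.40% and 3.76% in KO1 and KO2 with glucose in experiment 1. In experiment 2 with glucose the shares were 4.13% and 5.47% in KMT2D-WT and 4.56% and 5.39% in KO1 and KO2, so the groups overlapped there. Without glucose KMT2D-WT libraries had 2.45%, 2.48% and 2.54%, all below the KMT2D-KO libraries with 3.20%, 3.47%, 3.49% and 3.52%. Averaged over the 4 combinations of experiment and glucose, the KMT2D-KO share was higher by 0.773 percentage points, with the same direction in 4 of 4 (exact permutation test within these combinations, two-sided p = 0.0123, 324 arrangements, smallest possible 0.00309). The difference lost the threshold when genotype labels were rearranged within glucose only (p = 0.205), and also without WT1 of experiment 2 with glucose (0.605 points, exact permutation p = 0.0741) or KO2 of experiment 2 with glucose (0.668 points, exact permutation p = 0.0679). Counting error was small beside these differences: the 95% Wilson interval was at most 0.00897 percentage points wide on either side for the mRNA share, 0.00458 for the rRNA share and 0.000469 for the tRNA share, and it covers counting error only.

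**Figure D1:**
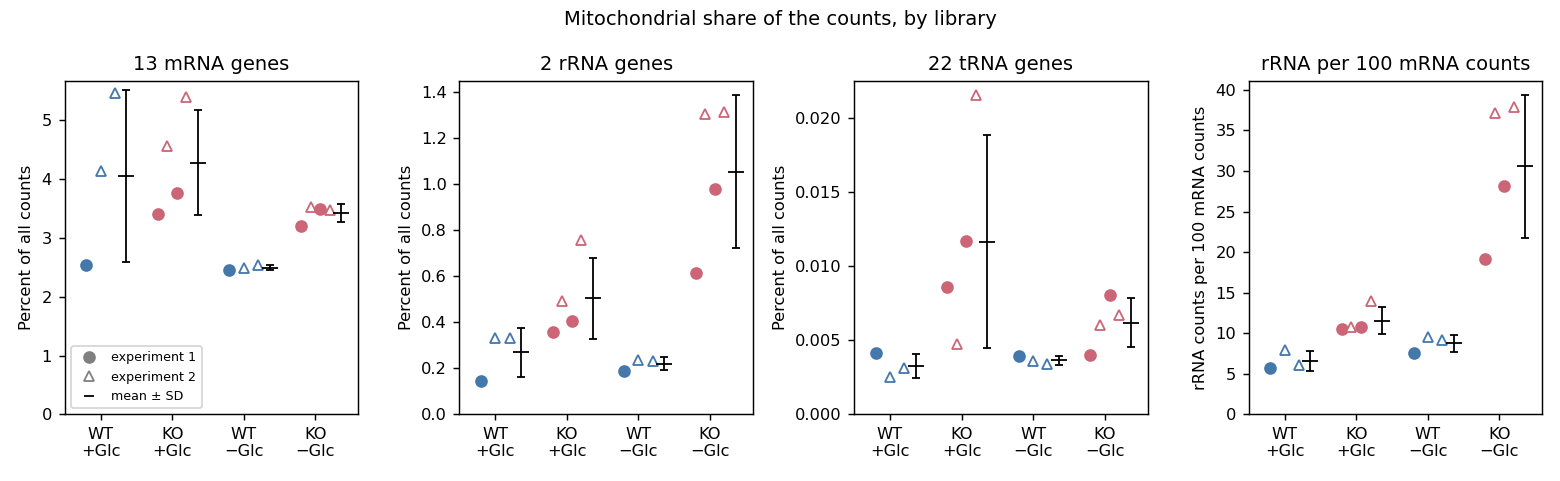
Share of all counts in each library (percent) on the 13 mRNA, 2 rRNA and 22 tRNA genes, and rRNA counts for each 100 mRNA counts, by genotype and glucose. Filled circles are experiment 1, open triangles experiment 2, and black bars the mean ± SD (n = 3 KMT2D-WT, n = 4 KMT2D-KO); the KMT2D-KO libraries without glucose hold 19.2 to 37.9 rRNA counts per 100 mRNA counts, above the other 10 libraries.

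The rRNA share separated the genotypes in every combination of experiment and glucose. With glucose it was 0.146% in KMT2D-WT of experiment 1 and 0.330% and 0.334% in KMT2D-WT of experiment 2. KMT2D-KO libraries with glucose had 0.358% and 0.405% in experiment 1 and 0.494% and 0.756% in experiment 2. Without glucose KMT2D-WT libraries had 0.187%, 0.238% and 0.232%, and KMT2D-KO libraries had 0.614%, 0.981%, 1.31% and 1.31%. Per 100 mRNA counts there were 6.61 ± 1.21 (SD, n = 3) rRNA counts in KMT2D-WT and 11.5 ± 1.66 (SD, n = 4) in KMT2D-KO with glucose, and 8.79 ± 1.05 and 30.6 ± 8.80 without. The log2 ratio of rRNA to mRNA counts was higher in KMT2D-KO by 1.33 (4 of 4 combinations, exact permutation test within combinations, two-sided p = 0.00309, the smallest 324 arrangements can give). This ratio was chosen after the values had been seen. It does not depend on the scaling between libraries. The RNA was selected for poly(A) tails, and whether the rRNA counts follow the amount of rRNA or its tails was not tested.

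Counts per length differed several-fold among the mRNA genes. The lengths are those of whole genes, whereas a read that overlapped neighbouring genes was counted for none of them. How far this shaped the order below was not tested. On the scale of CPM per kilobase, averaged over the 14 libraries, MT-ND4 (complex I, 6284), MT-CO1 (complex IV, 5626) and MT-CO2 (complex IV, 5413) were highest. MT-CO3 (complex IV, 2775), MT-ND4L (complex I, 2748), MT-ATP6 (complex V, 2697), MT-ND1 (2641) and MT-ND2 (2345, both complex I) followed. MT-CYB (complex III, 1772) and the complex I mRNA MT-ND3 (1535) were lower, and MT-ND5 (1138, complex I), MT-ATP8 (1113, complex V) and MT-ND6 (871, complex I) were lowest. Many neighbours in this order were not distinguished: MT-CO1 exceeded MT-CO2 in 7 of 14 libraries, MT-CO3 exceeded MT-ND4L in 7 of 14, and MT-ND5 exceeded MT-ATP8 in 6 of 14. The step from MT-CO2 to MT-CO3 had this order in 14 of 14 libraries, and that from MT-ND2 to MT-CYB in 13 of 14. Among the rRNAs, MT-RNR2 averaged 3197 CPM per kilobase and MT-RNR1 854. The ratio of MT-RNR2 to MT-RNR1 counts ranged from 3.53 to 5.03 in KMT2D-WT and from 3.81 to 9.62 in KMT2D-KO libraries.

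The first question was which mitochondrial RNAs differ with KMT2D in cells kept in glucose. Of the 37 genes, 25 passed the filter on low counts, and 7 rose in KMT2D-KO cells while 0 fell (edgeR quasi-likelihood test, Benjamini-Hochberg adjusted p under 0.05 over 20423 genes). For comparison, 13% of all genes tested rose and 11.7% fell. At an unadjusted p under 0.05, 0 members were lower with edgeR, and DESeq2 called 0 lower. Both rRNAs rose, as did the mRNAs MT-ND1 and MT-CO1 and the tRNA genes MT-TC, MT-TY and MT-TP. The median log2 fold change was 0.23 over the 13 mRNAs and 0.02 over all genes.

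MT-RNR2, the 16S rRNA of the large ribosomal subunit, had 1088 CPM in KMT2D-WT and 2734 and 3351 CPM in KO1 and KO2 of experiment 1. In experiment 2 it had 2398 and 2556 CPM in KMT2D-WT and 3952 and 6715 CPM in KO1 and KO2. The genotypes did not overlap in either experiment, and the log2 fold change was 1.26 ± 0.18 (SE, edgeR adjusted p = 0.00156). MT-RNR1, the 12S rRNA of the small subunit, had 288 CPM in KMT2D-WT and 717 and 680 CPM in KMT2D-KO of experiment 1, and 674 and 600 CPM against 695 and 804 CPM in experiment 2. Its log2 fold change was 0.63 ± 0.20 (edgeR adjusted p = 0.0497), and by experiment it was 1.28 and 0.24, so the difference was smaller in experiment 2. The MT-RNR1 call was lost in 11 of 21 refits with other settings or a library left out, and the MT-RNR2 call in 2 of 21.

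Among the mRNAs with glucose, MT-ND1 rose by 0.70 ± 0.18 (log2, edgeR adjusted p = 0.0223) and MT-CO1, the core subunit of cytochrome c oxidase, by 0.48 ± 0.14 (adjusted p = 0.0330). MT-CO1 had 4913 CPM in KMT2D-WT and 7535 and 8630 CPM in KO1 and KO2 of experiment 1. In experiment 2 the KMT2D-WT libraries had 9546 and 11886 CPM and KO1 and KO2 had 11853 and 14890 CPM, which overlapped. The other 11 mRNAs had log2 fold changes from -0.19 (MT-CYB) to 0.64 (MT-ND6), and none passed the test. The experiments differed in this comparison: the KMT2D-KO mean was above that of KMT2D-WT for 13 of 13 mRNAs in experiment 1 and for 8 of 13 in experiment 2. Experiment 1 holds a single KMT2D-WT library. Leaving it out left 1 call, and leaving out KO2 of experiment 1, WT1 of experiment 2 or KO2 of experiment 2 left 4, 2 and 3 calls. Without experiment as a covariate 0 members were called by edgeR and 0 by DESeq2.

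**Figure D2:**
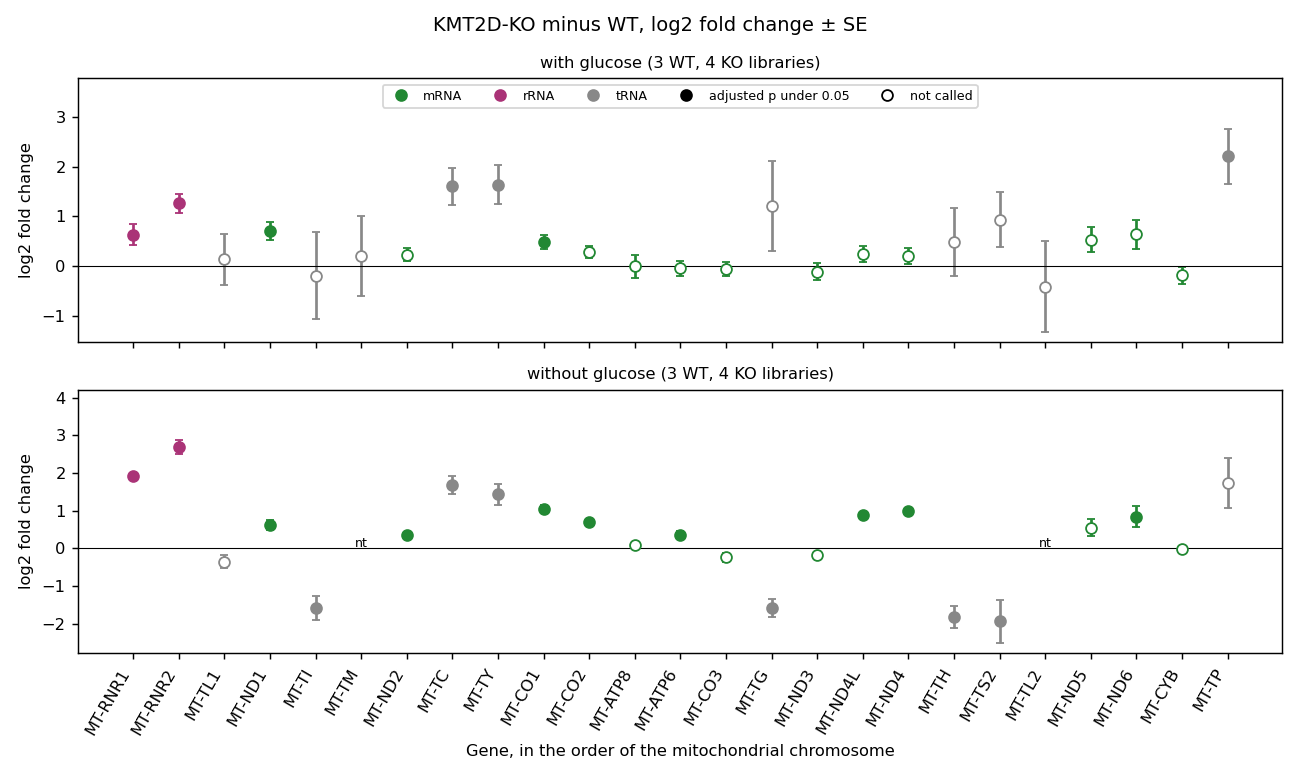
Log2 fold change ± SE, KMT2D-KO minus KMT2D-WT, of the 25 members tested with glucose (top) and the 23 tested without (bottom), in the order of the chromosome; nt marks a gene not tested. Filled points passed an adjusted p of 0.05, and the rRNAs lie highest among the called genes without glucose (1.91 and 2.69). The 4 genes called below 0 there are rare tRNA genes that KMT2D-WT libraries may have carried through the filter.

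The same comparison was made in cells without glucose. Of the 23 members tested, 12 rose and 4 fell in KMT2D-KO cells, where 25.9% of all 16782 genes tested rose and 24.9% fell. All 4 that fell were rare tRNA genes that KMT2D-WT libraries may have carried through the filter, as described below. Of the 13 mRNAs, 8 rose and 0 fell, with a median log2 fold change of 0.55 against 0.0029 over all genes, and 1 mRNA was lower at an unadjusted p under 0.05 and 0 by DESeq2. Scaling by library size alone moved the median of all genes to -0.25 and split the 16 calls into 8 higher and 8 lower. Under it MT-ND1, MT-ND2, MT-ATP6 and MT-ND6 were no longer called, and MT-CO3, MT-ND3, MT-CYB and MT-TL1 were called lower. Both rRNAs, MT-CO1, MT-CO2, MT-ND4 and MT-ND4L were higher under it as well, with log2 fold changes of 1.65, 2.44, 0.80, 0.45, 0.74 and 0.63 in that order.

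Without glucose, KMT2D-WT libraries gave 1407, 1813 and 1777 CPM of MT-RNR2. KO1 and KO2 gave 5593 and 9710 CPM in experiment 1, and 13258 and 13415 CPM in experiment 2. Every KMT2D-KO library was above every KMT2D-WT library, and the log2 fold change was 2.69 ± 0.18 (edgeR adjusted p = 9.1e-05). Group means were 1666 ± 225 CPM (SD, n = 3) and 10494 ± 3688 CPM (SD, n = 4). MT-RNR1 had 399, 378 and 354 CPM in KMT2D-WT and 1373, 1671, 1378 and 1400 CPM in KMT2D-KO libraries, again without overlap. Its log2 fold change was 1.91 ± 0.07 (edgeR adjusted p = 3.11e-05). Within experiment 1 and experiment 2, the ratio of the group means was 5.44-fold and 7.43-fold for MT-RNR2 and 3.82-fold and 3.80-fold for MT-RNR1.

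The mRNAs that rose without glucose came from complexes I, IV and V. In complex IV, MT-CO1 had 5193, 4211 and 4156 CPM in KMT2D-WT and 8410, 11117, 9664 and 9446 CPM in KMT2D-KO, with no overlap and a log2 fold change of 1.06 ± 0.09 (edgeR adjusted p = 0.000177). MT-CO2 rose by 0.70 ± 0.09 (adjusted p = 0.000888), whereas MT-CO3, the remaining complex IV subunit made in mitochondria, had -0.24 ± 0.13 (adjusted p = 0.155). MT-CO3 lay between 1520 and 1617 CPM in KMT2D-WT and between 1254 and 1661 CPM in KMT2D-KO, so its groups overlapped. In complex I, MT-ND4 had 5026, 6591 and 6814 CPM in KMT2D-WT and 10420, 10096, 13387 and 13338 CPM in KMT2D-KO, and its log2 fold change was 0.99 ± 0.06 (adjusted p = 6.14e-05). MT-ND4L, which shares the dicistronic mRNA of MT-ND4, rose by 0.88, MT-ND6 by 0.83, MT-ND1 by 0.62 and MT-ND2 by 0.36. MT-ND6 had 204 to 292 CPM in KMT2D-WT and 176 to 585 CPM in KMT2D-KO, so its groups overlapped (edgeR adjusted p = 0.0420). Its call was lost in 12 of 21 refits with other settings or a library left out. MT-ND5 had 0.55 ± 0.23 and MT-ND3 -0.18 ± 0.07, and neither passed (adjusted p = 0.0873 and 0.0664).
In complex V, MT-ATP6 rose by 0.37, and MT-ATP8, on the same dicistronic mRNA, had 0.08 ± 0.09 (adjusted p = 0.460). MT-CYB, the 1 complex III subunit encoded here, had -0.01 ± 0.08 (adjusted p = 0.959) with 1240 to 1820 CPM in KMT2D-WT and 1383 to 1758 CPM in KMT2D-KO libraries.

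**Figure D3:**
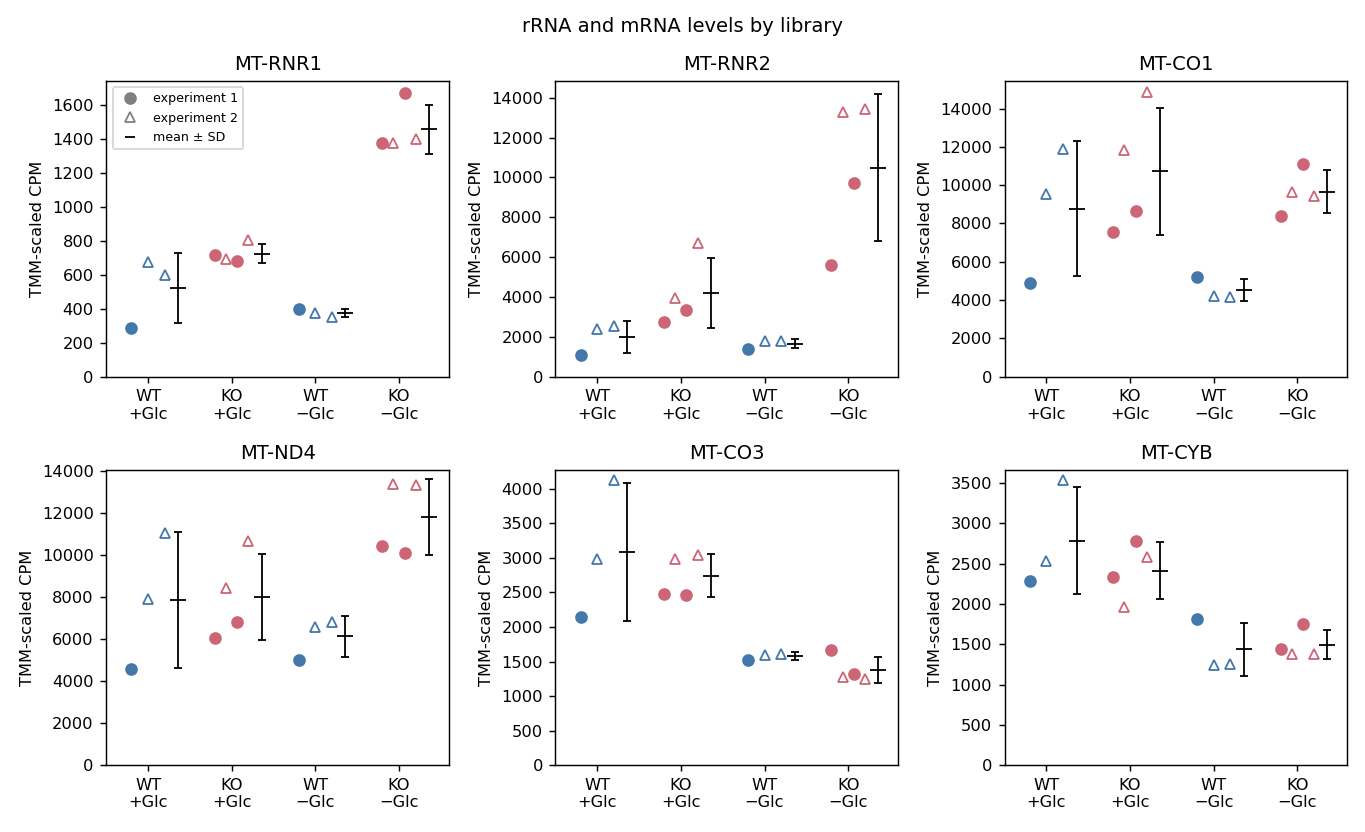
TMM-scaled CPM of the 2 rRNAs and of 4 mRNAs in each library, by genotype and glucose, with filled circles for experiment 1, open triangles for experiment 2, and black bars for the mean ± SD. MT-RNR1, MT-RNR2, MT-CO1 and MT-ND4 separate the genotypes without glucose, whereas MT-CO3 and MT-CYB overlap.

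The WT1 and WT2 libraries and the KO1 and KO2 libraries of experiment 2 without glucose were close to each other. With each pair summed to 1 library, 8 members were called, of which 7 were higher, and the log2 fold changes of both rRNAs and MT-CO1 were 1.93, 2.63 and 1.03 (edgeR adjusted p = 0.0145, 0.0178 and 0.0213). In the 3 libraries of experiment 1 alone, 0 members and 0 of all genes were called at these thresholds, although the same 3 genes had log2 fold changes of 1.94, 2.45 and 0.91.

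Of the 22 tRNA genes, 5 had a count of 0 in all 14 libraries, which allows at most 0.0476 to 0.191 CPM per library, and 12 were not tested in any fit. Mature tRNAs carry no long poly(A) tail, and whether these reads came from mature or precursor RNA was not tested. MT-TC had 16.5 CPM in KMT2D-WT and 28.1 and 55.4 CPM in KO1 and KO2 without glucose in experiment 1. In experiment 2 it had 7.91 and 7.68 CPM in KMT2D-WT and 28.2 and 31.9 CPM in KMT2D-KO, without overlap in either. MT-TC rose by 1.67 ± 0.24 without glucose (edgeR adjusted p = 0.00128) and by 1.60 ± 0.38 with glucose (adjusted p = 0.0148). MT-TY rose by 1.43 and 1.64 in the same order. MT-TC and MT-TY overlap by 1 base, with 31 unannotated bases on the far side of MT-TC and 12 between MT-TY and MT-CO1.

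The 4 tRNA genes that fell in KMT2D-KO cells without glucose were rare. The lowest levels included MT-TS2, with 0.907 to 1.90 CPM in KMT2D-WT and 0 to 0.561 CPM in KMT2D-KO. MT-TG had 0.771 to 2.47 CPM in KMT2D-WT and 0.188 to 1.05 CPM in KMT2D-KO. MT-TI had 0.408 to 1.72 CPM in KMT2D-WT and 0.112 to 0.586 CPM in KMT2D-KO. Genes this rare can pass the filter through the KMT2D-WT libraries, where they were higher, so no weight is placed on the number or direction of these calls. Which libraries carried each gene through the filter was not tested. With the minimum count raised to 50, 18 members were tested, of which 12 were called higher and 1 lower. MT-TH had 1.95, 4.12 and 3.67 CPM in KMT2D-WT and 0.501, 0.224, 1.14 and 1.59 CPM in KMT2D-KO, with no overlap and a log2 fold change of -1.81 ± 0.29 (edgeR adjusted p = 0.00242). MT-TG, MT-TI and MT-TS2 had log2 fold changes of -1.58, -1.57 and -1.94. Beside MT-TH (left neighbour MT-ND4) and MT-TS2 (next to MT-TH) there are 0 unannotated bases on either side, the same holds for MT-TG, and MT-TI touches MT-ND1 and overlaps MT-TQ by 3 bases. A read had to lie wholly within such a gene, of 59 to 75 bases for tRNA genes in this genome, to be counted. MT-TL1, which lies between MT-RNR2 and MT-ND1, had -0.35 ± 0.18 (adjusted p = 0.153). MT-TL2 passed the filter with glucose only, where it had -0.41 ± 0.91 (adjusted p = 0.789) and at most 0.369 CPM. Without glucose, where it was not tested, MT-TL2 had 0.363 to 0.859 CPM in KMT2D-WT and 0 to 0.142 CPM in KMT2D-KO libraries.

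**Figure D4:**
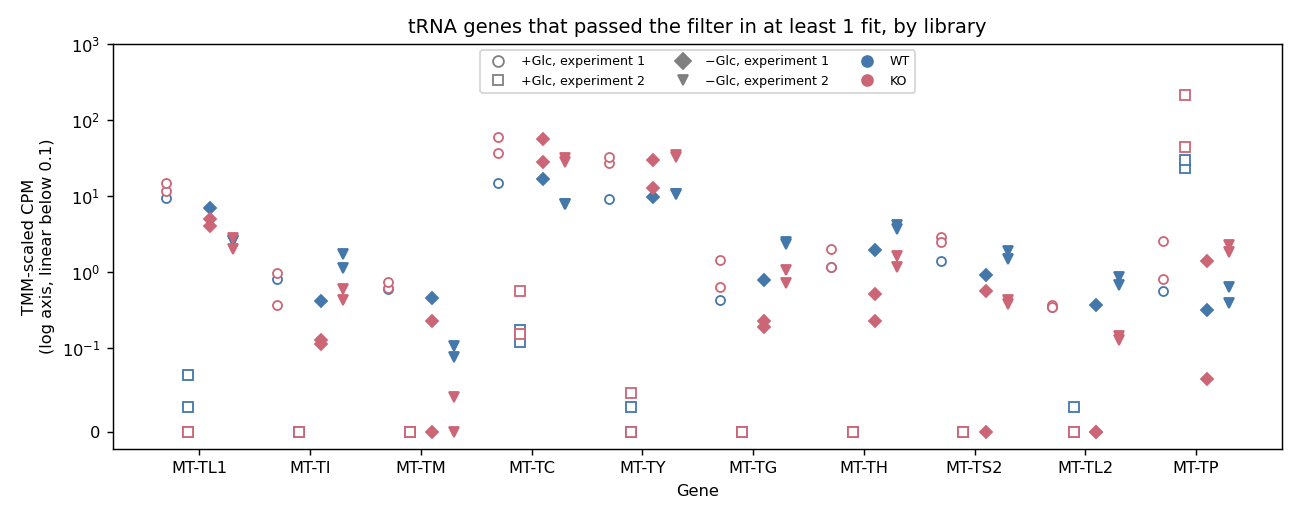
TMM-scaled CPM (log axis, linear below 0.1) of the 10 tRNA genes that passed the filter in at least 1 fit, by library, with open symbols with glucose, filled symbols without, and KMT2D-WT blue and KMT2D-KO red. In the 4 libraries of experiment 2 with glucose most of these genes sit at or near 0, and MT-TP sits between 23.1 and 214 CPM.

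The tRNA genes also showed how far the 4 libraries counted with both mates stood apart. MT-TH, MT-TG, MT-TI, MT-TS2 and MT-TM had a count of 0 in all 4, and MT-TY had at most 0.0456 CPM there against 9.20 to 34.2 CPM in the other 10. Beside MT-TP the last 546 bases of the numbered sequence hold no gene, and the circle continues with 576 more before MT-TF. MT-TP had 23.1, 29.6, 44.6 and 214 CPM in these 4 libraries and 0.0627 to 2.57 CPM in the other 10. Its rise in KMT2D-KO cells with glucose (edgeR adjusted p = 0.0192) was 3.07-fold in experiment 1, from levels near 1 CPM, and 4.91-fold in experiment 2 as ratios of group means. Without glucose MT-TP had 1.73 ± 0.67 (adjusted p = 0.0667).

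Whether KMT2D loss acted differently with and without glucose was then tested in 1 fit of all 14 libraries. The KMT2D-KO log2 fold change was more positive without glucose for 4 members and more negative for 1, where 4.73% and 6.54% of 18678 genes were called in these directions. MT-RNR2 differed by 1.46 ± 0.29 (log2, edgeR adjusted p = 0.00881) and MT-RNR1 by 1.30 ± 0.24 (adjusted p = 0.00651). MT-ND4 differed by 0.82 ± 0.18 (adjusted p = 0.0152) and MT-ND4L by 0.65 ± 0.19 (adjusted p = 0.0485). MT-CO1 differed by 0.60 ± 0.19 and did not pass (adjusted p = 0.0552), and the other mRNAs lay between -0.16 and 0.44. MT-TG differed by -2.74 (adjusted p = 0.0419): its KMT2D-KO log2 fold change was 1.20 with glucose (not called, adjusted p = 0.405) and -1.58 without (called lower). Its value includes the 4 libraries where it was at 0. The 4 libraries with both mates take part in this difference, and their part in it was not tested. Without WT1 or WT2 of experiment 2 with glucose, or WT1, WT2, KO1 or KO2 of experiment 2 without glucose, 3 members were called, and 2 without the KMT2D-WT library of experiment 1 without glucose. Without KO1 of experiment 1 without glucose 8 were called, and without experiment as a covariate 0 were. Scaling by library size alone moved the median of all genes by -0.23 and gave 3 higher and 2 lower.

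The response to glucose deprivation, averaged over the genotypes, was compared for experiment 1, where all libraries were counted as single reads. The fit was that of all 14 libraries, with KMT2D-KO effects estimated over both experiments. Libraries of experiment 2 therefore also entered this comparison. Both rRNAs rose, by 0.77 ± 0.22 for MT-RNR2 and 0.66 ± 0.18 for MT-RNR1 (log2, edgeR adjusted p = 0.0456 and 0.0416). MT-CO3 fell by 0.63 and MT-CYB fell by 0.60 on the log2 scale (adjusted p = 0.0175 and 0.0445), and the other 11 mRNAs did not pass, with values from -0.48 to 0.35. Of all genes 3.78% rose and 5.72% fell. MT-RNR2 went from 1088 to 1407 CPM in KMT2D-WT, from 2734 to 5593 CPM in KO1 and from 3351 to 9710 CPM in KO2. MT-RNR1 went from 288 to 399 CPM in KMT2D-WT, from 717 to 1373 CPM in KO1 and from 680 to 1671 CPM in KO2. The test of effect by glucose condition, given above, covers both experiments and not this one alone. With library size alone the median of all genes was -0.13, the rRNAs were not called, and the 4 calls were all lower (MT-CO3, MT-CYB, MT-ND3 and MT-TL1). Without the KMT2D-WT library of experiment 1 without glucose 0 members were called. Leaving out WT1 of experiment 2 with glucose left 2 calls, and 1 call was left without either KMT2D-KO library of experiment 1 with glucose, KO2 of experiment 1 without glucose, or any of the 4 libraries of experiment 2 without glucose.

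In experiment 2 glucose deprivation coincided with the change from both mates to single reads. There 8 members were higher and 10 lower without glucose, where 26.3% and 24.0% of all genes were. All 8 that were higher were tRNA genes, and the lower ones were 9 mRNAs and MT-TP. MT-CO3 (-1.20 ± 0.12) and MT-CYB (edgeR adjusted p = 8.91e-05) were lower as in experiment 1, whereas MT-CO1 was -0.92 ± 0.12 here (adjusted p = 4.03e-05) and 0.11 ± 0.14 in experiment 1 (adjusted p = 0.691). The rRNAs did not pass (MT-RNR2 0.43 ± 0.18 and MT-RNR1 0.03 ± 0.15, adjusted p = 0.0692 and 0.882). Both comparisons of glucose came from the same fit, in which the KMT2D-KO effects were estimated over both experiments. Each therefore also drew on libraries of the other experiment. Scaling by library size alone gave 8 higher and 12 lower.

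**Figure D5:**
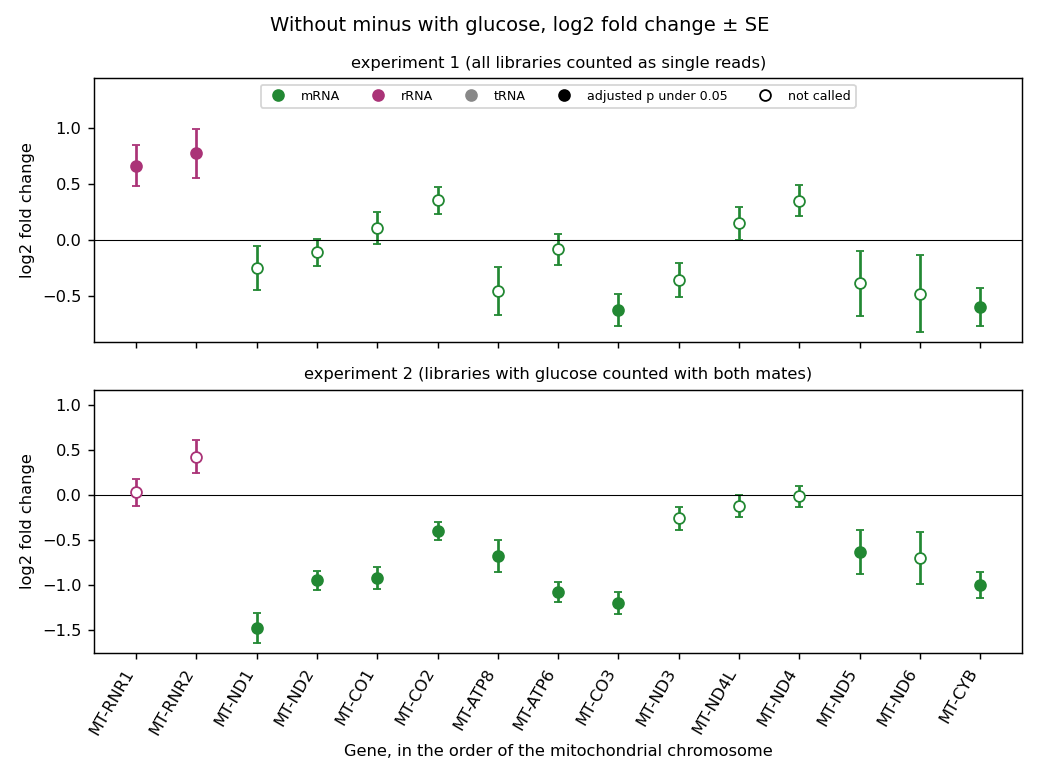
Log2 fold change ± SE, without minus with glucose, of the 13 mRNAs and 2 rRNAs in experiment 1 (top) and experiment 2 (bottom), in the order of the chromosome, with filled points for an adjusted p under 0.05. In experiment 1 the rRNAs lie above 0 and MT-CO3 and MT-CYB below, and in experiment 2 9 mRNAs are called below 0.

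Between experiments, the members also differed. With glucose 13 members were higher in experiment 2 and 8 lower, where 22.8% and 26.0% of all genes were, and the 13 were 10 mRNAs, both rRNAs and MT-TP. MT-ND4L was 1.11 ± 0.14 and MT-ATP6 1.04 ± 0.13 higher there (edgeR adjusted p = 2.98e-05 and 2.53e-05). Without glucose, where both experiments had single reads, 7 members were higher and 3 lower, against 24.2% and 20.4% of all genes. MT-ND4L was again higher in experiment 2 (0.85 ± 0.14, adjusted p = 0.000294) and MT-ND1 was lower (-0.93 ± 0.18, adjusted p = 0.000995). The 10 calls became 6 when KMT2D-WT of experiment 1 was left out.

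Nuclear copies of mitochondrial genes resemble them in sequence. The files list 415 of them by name, and their summed counts were 0.0415% to 0.146% of a library. MTATP6P1, a copy of the MT-ATP6 region, had the highest total, followed by MTND4P12 and MTND2P28. As a share of the summed count of gene and copies, the copies of MT-ATP6 held 6.76% to 18.9%, those of MT-ND6 0.0868% to 11.2% and those of MT-RNR2 0.0185% to 3.48%. MTND4P12 had 2.45 to 3.80 CPM in the 4 libraries with both mates and 128 to 585 CPM in the other 10. Adding each copy to its gene left the number of called members in the 7 comparisons at 7, 16, 5, 4, 18, 21 and 10, in the order given above. The calls themselves were not all the same. For glucose deprivation in experiment 2 they were 9 higher and 9 lower with the copies added, against 8 and 10 without. MT-RNR1 has 0 copies by name, and MT-RNR2 had a log2 fold change of 2.69 without glucose with its copies added.

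The factors that make and process mitochondrial RNA are encoded in the nucleus. Of 18 factors of mitochondrial transcription and its control, 5 rose and 2 fell in KMT2D-KO cells with glucose. Of all genes tested there, 13% rose and 11.7% fell. Without glucose 3 of the 18 rose and 7 fell, where 25.9% of all genes rose and 24.9% fell. TEFM, which lets the mitochondrial polymerase elongate, fell in both, by 1.10 ± 0.11 and 2.01 ± 0.22 on the log2 scale (edgeR adjusted p = 0.000274 and 0.000427). It had 16.9 to 19.9 CPM in KMT2D-WT and 8.24 to 9.40 CPM in KMT2D-KO libraries with glucose, and 18.8 to 19.2 CPM against 2.75 to 5.65 CPM without. MRPL12, a ribosomal protein that also binds the polymerase, rose by 0.81 and 0.99, and TOP1MT, the mitochondrial topoisomerase, rose by 0.94 without glucose. PRIMPOL, which primes DNA synthesis, fell by 0.60 with glucose, and MTERF2, of the mitochondrial termination factor family, fell by 1.47 without. The polymerase POLRMT had -0.03 and 0.06 and the initiation factor TFAM had -0.01 and -0.14, and neither passed in either condition.

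Of 21 processing and decay factors, 9 rose and 0 fell with glucose, and 9 rose and 5 fell without. LRPPRC, which stabilizes mitochondrial mRNAs, rose by 0.57 ± 0.08 with glucose and by 0.66 ± 0.11 without (edgeR adjusted p = 0.00129 and 0.00256). FASTKD5 and FASTKD3, RNA-binding proteins of the FASTK family, rose by 0.81 and 0.69 with glucose, and PTCD2 (edgeR adjusted p = 0.000113) fell without. Of 25 modification and tRNA-charging factors tested with glucose, 7 rose and 1, TRMT5, a tRNA methyltransferase, fell by 0.31. Of the 24 tested without glucose 8 rose and 3 fell, and YRDC, which acts in tRNA threonylcarbamoylation, rose by 0.89. Of 8 tested regulators of mitochondrial biogenesis 2 rose and 0 fell in each condition. Among nuclear genes of the respiratory complexes 28 of 72 rose and 1 fell with glucose (median log2 0.31), and 53 of 71 rose and 1 fell without (median 0.52). These lists were tested gene by gene only, and the background shares given for each glucose condition above apply to them. Between experiments with glucose, where both mates were counted in experiment 2 alone, 61 of 72 nuclear respiratory genes were lower in experiment 2 and 3 higher (26.0% and 22.8% of all genes), whereas 10 of the 13 mitochondrial mRNAs were higher. Without glucose 56 of 72 were lower and 2 higher (20.4% and 24.2% of all genes), and of the mitochondrial mRNAs 3 were higher and 2 lower.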

How the data were processed

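RNA-seq of SCC23 cells was analysed in 14 libraries, grouped by the labels into KMT2D-WT and KMT2D-KO with or without glucose. The authors mapped reads to GRCh38 with HISAT2 and counted them per gene name with featureCounts 2.0.3 on Ensembl release 102. The deposited values are unnormalized counts of primary alignments without strand, of single reads in 10 libraries and of both mates in 4. The methods section of the study speaks of unique reads. Whether others were removed before counting is not given in the sources used here. The ChIP-seq data were not analysed here.

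The quasi-likelihood test of edgeR 4.0.16 (R 4.3.3) was applied to the counts (TMM scaling, filterByExpr at a minimum count of 10, Benjamini-Hochberg adjusted p under 0.05 over all genes tested). It was checked on simulated counts. Each glucose condition was fitted alone with experiment as covariate. The study's methods name DESeq2 without one. All 14 libraries were fitted together for the difference between glucose conditions, for glucose and for experiment. Experiment pairs the libraries by the labels: its effect correlated between genotypes over 18678 genes (r = 0.920 with and 0.829 without glucose). Shares were tested by exact permutation over all arrangements, and their Wilson intervals were computed with SciPy 1.17.1. Alternatives included DESeq2 1.42.0, other scalings and filters, and each library left out. Of these, the sums with nuclear copies and the ratio of rRNA to mRNA were added after the data had been seen. All mRNA, rRNA and tested tRNA members are named, along with POLRMT, TFAM, LRPPRC, the 3 nuclear copies with the highest counts and, in each KMT2D-KO comparison, up to 3 called factors per direction with a mean of at least 1 CPM. The members and the gene lists were chosen with earlier results of these data known. Gene positions are those used in the counting, and sequences were cut from hg38 at these positions.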

Additional observations from a re-analysis of the deposited data

Results flagged for a closer look

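In 5 of 56 groups of 4 libraries examined, 1 library stood apart from the other 3 by Dixon's criterion, where chance flags about 1 in 20 (2.8 here). Only KMT2D-KO groups were examined, because KMT2D-WT groups hold fewer libraries, so no KMT2D-WT library could be flagged. All 5 flags fell on libraries of experiment 1 without glucose. KO2 of experiment 1 had 1671 CPM of MT-RNR1 (others 1373 to 1400), 55.4 CPM of MT-TC (others 28.1 to 31.9) and 1758 CPM of MT-CYB (others 1383 to 1446). KO1 of experiment 1 had 1661 CPM of MT-CO3 (others 1254 to 1314) and an mRNA share of 3.20% of counts (others 3.47% to 3.52%). In each of these groups 2 of the other 3 libraries were the close pair of experiment 2.

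The KMT2D-KO effect differed between glucose conditions for 5 members in the test of the difference itself. Without minus with glucose, the log2 difference was 1.30 for MT-RNR1, 1.46 for MT-RNR2, 0.82 for MT-ND4, 0.65 for MT-ND4L and -2.74 for MT-TG (edgeR adjusted p = 0.00651, 0.00881, 0.0152, 0.0485 and 0.0419). MT-TG had a count of 0 in the 4 libraries counted with both mates. The part of those libraries in the other differences was not tested.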

How the results depend on the processing

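Over all alternatives run, the 81 calls of members kept their direction in every refit, and 1532 of 1746 refits kept the call. With glucose, the 7 KMT2D-KO calls became 0 without the replicate block of experiment (also 0 by DESeq2 without covariate), 3 and 1 in experiments 1 and 2 alone, 12 with line KO2 alone, and 1 to 9 when a library was left out. Without glucose, the 16 calls became 7 without the block, 0 in experiment 1 alone, 8 with the close libraries of experiment 2 summed, and 13 to 20 when a library was left out. The 5 differences between glucose conditions became 0 without the block, 10 without a filter, 8 with DESeq2 and 2 to 8 when a library was left out. Glucose deprivation in experiment 1 gave 13 calls in place of 4 without a filter, 7 with DESeq2, 1 in the 6 libraries of experiment 1 with line as covariate, and 0 to 5 when a library was left out. Experiment without glucose gave 17 calls in place of 10 without a filter and 6 to 12 when a library was left out. The mRNA share difference was 0.580 percentage points (exact permutation p = 0.205) without the block, and 0.605 to 0.940 when a library was left out. For the 3-library and 4-library fits, fewer libraries were used; for the other changes the cause was not tested. The 18 calls for glucose deprivation in experiment 2 ranged from 15 to 26, and the 21 between experiments with glucose from 17 to 27, in both cases within 1.5 times the count over 22 alternatives. MT-CYB turned from -0.01 to 0.10 in experiment 2 alone without glucose, and the median difference between glucose conditions over the 13 mRNAs turned from 0.21 to -0.018 with library size alone. A count of 0 allowed up to 0.0476 to 0.191 CPM by library.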
